A study of Mus musculus with 6 samples.

Results

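The transcripts of 2 large chondroitin sulphate proteoglycans, versican (Vcan) and aggrecan (Acan), were followed in mouse aorta together with those of link proteins (Hapln1, Hapln3), lubricin (Prg4) and ADAMTS proteases (Adamts1, Adamts4, Adamts5, Adamts9). These 9 genes were taken by name from a matrix of 52636 genes, and every one of them was found and had an adjusted p-value. Bulk RNA sequencing was done on whole thoracic aortas of male mice at 12 weeks of age. The 4 WT libraries came from untreated C57BL/6J mice. The 2 Tgfbr1/2iSMCKO (KO) libraries came from mice with Tgfbr1f/f and Tgfbr2f/f alleles that also carried Myh11-CreERT2 and mT/mG, and these mice were given tamoxifen at 2 mg per day for 5 days by i.p. injection at 11 weeks of age. WT mice carried neither the floxed alleles nor the Cre transgene nor the fluorescent mT/mG reporter and had no tamoxifen, so the effects of receptor loss, tamoxifen and genetic background cannot be told apart. Cre is active only in Myh11-expressing smooth muscle cells (SMCs), on a transgene inserted on the Y chromosome, so other cells of the aortic wall keep both TGF-β receptors. The aortas had no hemorrhagic lesions.

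Versican and aggrecan are core proteins that carry many chondroitin sulphate chains and bind hyaluronan through a domain at one end. Link proteins lock that bond, and the resulting aggregates hold water and swell between the elastic layers of the aortic media. ADAMTS proteases of the hyalectanase branch cut both core proteins at defined glutamate bonds, and in the aortic wall this turnover sets how much of the swelling matrix remains. Pooling of such proteoglycans in the media is a known feature of thoracic aortic disease. Lubricin, a mucin-like glycoprotein, is known from joint surfaces and is also made by mesothelial and other lining cells.

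Total counts per library were 19650983 to 28860598. Tgfbr1 and Tgfbr2 had log2 fold changes of 0.20 (DESeq2 adjusted p = 0.63) and -0.09 (DESeq2 adjusted p = 0.838), but a whole-gene count also takes in undeleted exons and cells without Cre, so it does not check the KO label. The libraries labelled KO are called KO here. KO-2 stood apart with 11.7% mitochondrial counts, against 2.62% to 4.44% in the other 5 libraries. Beside aortic markers, KO libraries held more transcripts of other cells. The 9 adipocyte markers summed to 2958 to 5306 normalised counts in WT, 5996 in KO-1 and 47660 in KO-2, and the 7 cardiac markers to 2946 to 4172 in WT, 27160 in KO-1 and 4087 in KO-2. Red blood cell markers summed to 859 to 5990 in WT and to 11080 and 61680 in KO. Of the 9 smooth muscle markers 0 passed the test and their sums overlapped (998400 to 1170000 in WT, 942200 and 1090000 in KO). Singly, 5 of the 9 did not overlap between the groups, against 34.3% of all genes tested. Tagln, Cnn1 and Smtn were lower in KO (log2 fold changes of -0.41, -0.38 and -0.30), and Myh11 and Des were higher (0.36 and 0.40). In whole tissue, fewer cells of a type and less RNA per cell cannot be told apart.

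Acan and Vcan were lower in KO aortas, and Adamts4, Adamts5 and Prg4 were higher. Hapln1, Hapln3, Adamts1 and Adamts9 did not pass the test. Thus 5 of the 9 genes had a DESeq2 Benjamini-Hochberg adjusted p-value under 0.05, where 10.4% of the 17070 genes tested did (4.69% lower and 5.71% higher in KO). With the study's further requirement of more than a 2-fold change, 3 of the 9 were called (Acan lower, Prg4 and Adamts4 higher), against 5.64% of all genes (2.1% lower and 3.54% higher). The groups did not overlap in the same 5 genes that passed the adjusted p-value, and in 34.3% of all genes tested. The median log2 fold change was -0.40 over the 9 genes and 0.01 over all genes tested.

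**Figure D1:**
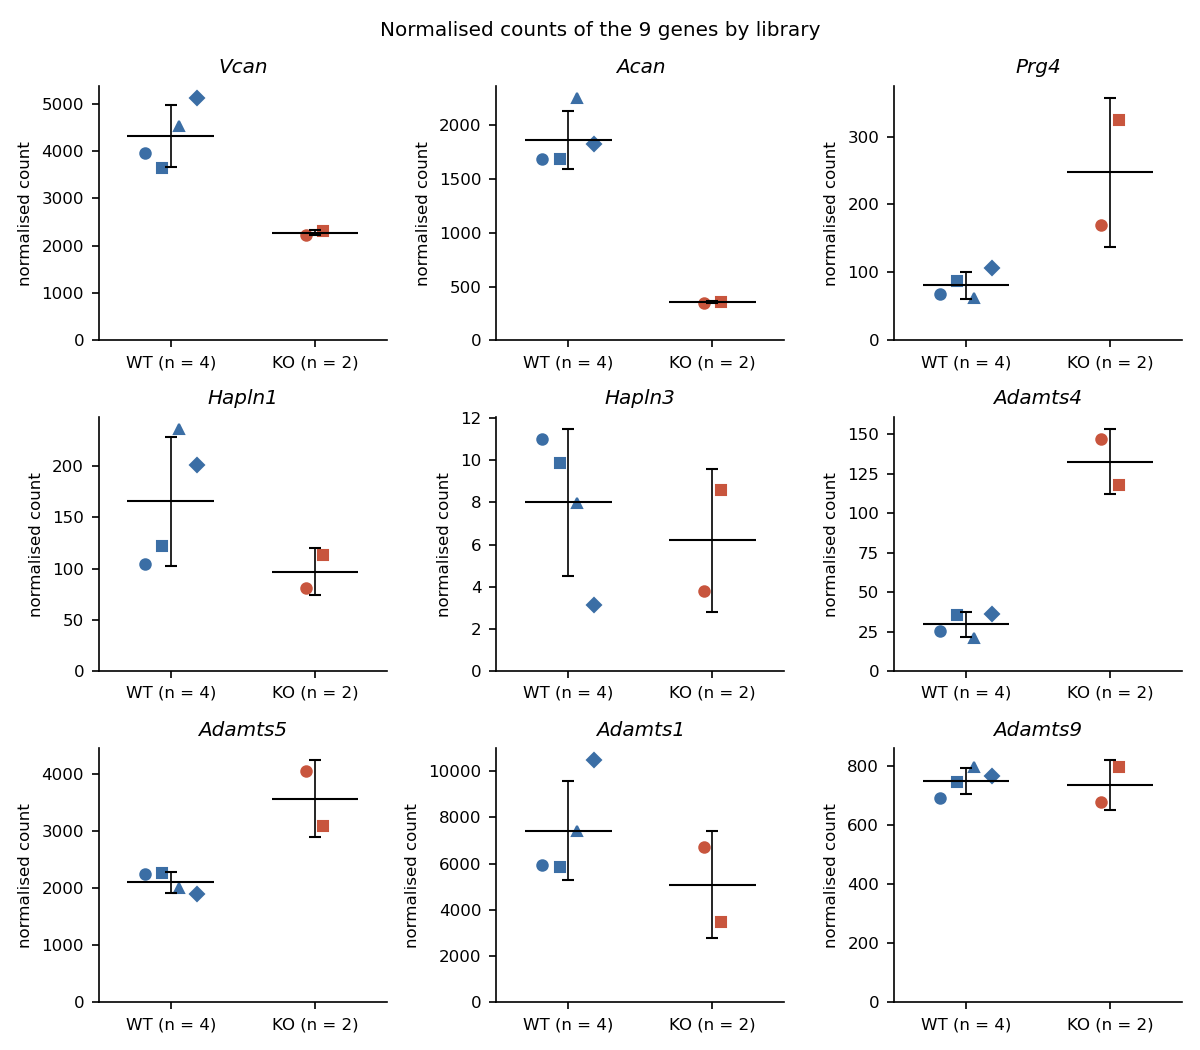
Normalised counts (y axis, linear and starting at 0) of the 9 genes in each library, with circles, squares, triangles and diamonds for replicates 1 to 4, the horizontal bar for the group mean and the error bar for the SD (WT, n = 4; KO, n = 2). Both KO points lie below the 4 WT points for Vcan and Acan and above them for Prg4, Adamts4 and Adamts5, and the groups overlap for the other 4 genes.

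Acan (ENSMUSG00000030607.7, GRCm38 chromosome 7, 79053483 to 79115099, plus strand) had the largest decrease of the 9. Its normalised counts (counts divided by DESeq2 size factors) were 1690, 1688, 2254 and 1829 in the 4 WT libraries in order, while KO-1 had 351 and KO-2 had 360. The KO libraries were close to each other and far under every WT library. The means were 1865 ± 267 (SD, n = 4) and 355 ± 6.78 (SD, n = 2), so that the level was 5.25-fold lower in KO. The log2 fold change was -2.39 (SE 0.20, 95% interval -2.78 to -2.01, DESeq2 adjusted p = 1.13e-30). Acan alone of the 9 passed a test against a 2-fold change itself, and it passed the adjusted p-value in all 13 alternative fits, with log2 fold changes of -2.44 to -2.25.

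Vcan (ENSMUSG00000021614.16, chromosome 13, 89655312 to 89742509, minus strand) was the more abundant core protein transcript. WT-1 to WT-4 had 3969, 3633, 4531 and 5118 normalised counts, and KO-1 and KO-2 had 2235 and 2308. As with Acan, both KO libraries fell under the lowest WT library and lay near each other. The mean went from 4313 ± 652 (SD, n = 4) to 2272 ± 51.6 (SD, n = 2), which was 1.90-fold lower. With a log2 fold change of -0.92 (SE 0.19, 95% interval -1.29 to -0.56, DESeq2 adjusted p = 4.34e-05), Vcan passed the adjusted p-value but stayed just short of the 2-fold threshold. Leaving out any single library gave log2 fold changes of -1.0 to -0.83.

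The stretch upstream of both core protein genes is shown because these are the pair of transcripts that fell together. Each run gives the 250 bases before the RefSeq start on GRCm38.p6, read 5′ to 3′ on the gene's own strand, chr13:89742513-89742762 on the minus strand for Vcan and chr7:79052976-79053225 on the plus strand for Acan. Capitals mark GGGCGG or its reverse complement CCGCCC, the letters of a GC box.
Vcan: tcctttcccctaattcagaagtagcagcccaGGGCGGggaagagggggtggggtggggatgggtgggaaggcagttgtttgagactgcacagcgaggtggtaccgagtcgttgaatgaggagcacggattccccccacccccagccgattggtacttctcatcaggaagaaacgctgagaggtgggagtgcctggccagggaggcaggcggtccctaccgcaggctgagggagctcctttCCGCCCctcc
Acan: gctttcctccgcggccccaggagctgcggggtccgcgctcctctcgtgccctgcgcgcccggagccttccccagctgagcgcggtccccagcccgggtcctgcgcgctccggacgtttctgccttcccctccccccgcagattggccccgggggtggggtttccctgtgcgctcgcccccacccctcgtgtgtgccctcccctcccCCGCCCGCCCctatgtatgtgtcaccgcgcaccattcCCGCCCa
Vcan has 2 matches and Acan 3, of which a pair overlaps by its end bases, and 32.9% of 27025 mouse promoter windows of this length hold at least 1. Both windows are rich in G and C (62.4% for Vcan and 74.4% for Acan, where the median over all windows is 52%). Neither window holds CAGAC on either strand, letters that Smad proteins can bind, which occur in 42.1% of all windows. TGANTCA, the letters of an AP-1 site, was found in 0 of the 6 members with an entry (Vcan, Acan, Hapln1, Hapln3, Adamts1, Adamts9) and occurs in 6.87% of all windows. CAGAC had 1 match each in the windows of Hapln1 and Hapln3.

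The loss was larger for aggrecan than for versican. Per kb of exon, there were 82.5, 90.0, 96.3 and 69.2 aggrecan transcripts for every 100 versican transcripts in the WT libraries, against 30.4 and 30.2 in KO-1 and KO-2. The log2 ratio of Acan to Vcan normalised counts went from -1.21 ± 0.21 (SD, n = 4) to -2.68 ± 0.01 (SD, n = 2), a difference of -1.47. An exact two-sided permutation test gave p = 0.0667, the smallest that 15 arrangements of 2 against 4 libraries allow. This ratio was chosen after its values had been seen. The summed level of both core proteins per kb was 477 to 615 in WT and 202 and 208 in KO, without overlap.

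Aggrecan is best known from cartilage, where SOX9 drives it. Of 17 other genes of the cartilage list with an adjusted p-value, 2 passed (11.8%, near the 10.4% of all genes), both higher. Chad had a log2 fold change of 4.40 (SE 0.83), with 19.8 to 83.5 normalised counts in WT, 486 in KO-1 and 1712 in KO-2. Col11a1 had 2.73 (SE 0.92) and was low, with 0 to 10 estimated counts in WT and 45 and 37 in KO. Snorc, a cartilage membrane proteoglycan, had 17.8 to 35.2 normalised counts in WT and 5.31 and 13.5 in KO, without overlap, and did not pass (-1.41, SE 0.75, DESeq2 adjusted p = 0.257). The list summed to 7922 to 9640 normalised counts in WT and 8297 and 9901 in KO. Sox9 itself had 185 to 262 normalised counts in WT, and 254 and 498 in KO-1 and KO-2 (log2 fold change 0.75, SE 0.31, DESeq2 adjusted p = 0.112). Col2a1, the main cartilage collagen, had 0 to 22.5 normalised counts in WT and 35.7 and 18.4 in KO. Col9a2 and Matn1 had 0 counts in all 6 libraries. Of 17 genes known to respond to TGF-β 8 passed, 7 lower (among them Pmepa1, -1.45, SE 0.18) and 1 higher (Thbs1, 2.60, SE 0.34).

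Link proteins were far less abundant than the core proteins whose hyaluronan bond they hold. Hapln1 (ENSMUSG00000021613.9, chromosome 13, 89539796 to 89611652, plus strand), which lies 43659 bp beside Vcan and is transcribed from the other strand, had 104, 122, 236 and 200 normalised counts across WT-1 to WT-4. KO-1 and KO-2 had 81.2 and 113. KO-1 was the lowest library, but KO-2 fell between WT-1 and WT-2. The log2 fold change of -0.78 (SE 0.40, 95% interval -1.55 to 0.00) did not pass the test (DESeq2 adjusted p = 0.225). Hapln3 (ENSMUSG00000030606.8, chromosome 7, 79115102 to 79131018, minus strand), the link protein gene that ends 2 bp from the end of Acan, was close to the limit of detection. WT-1 to WT-4 held only 10, 11, 8 and 3 of its estimated counts, and KO-1 and KO-2 held 5 and 7. At this depth the log2 fold change (-0.40, SE 1.10) could lie anywhere between -2.54 and 1.75 (95% interval; DESeq2 adjusted p = 0.888). Of the other lecticans and link proteins (neurocan, brevican, Hapln2 and Hapln4) 0 of 2 with an adjusted p-value passed. Ncan had 70.3 to 101 normalised counts in WT and 24.3 and 50.4 in KO, without overlap (log2 fold change -1.21, SE 0.44, DESeq2 adjusted p = 0.0542). Bcan had at most 8.60 normalised counts and Hapln2 had 0 counts in all libraries.

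Among the proteases, Adamts4 and Adamts5 were higher in KO, while Adamts1 and Adamts9 were not shown to differ. Adamts4 (ENSMUSG00000006403.13, chromosome 1, 171250421 to 171260637, plus strand), also named aggrecanase, had 25.3, 35.9, 21 and 36.6 normalised counts in the order WT-1 to WT-4, and KO-1 and KO-2 had 147 and 118. Every KO value was more than the highest WT value, though the gene was low in all libraries (21 to 40 estimated counts in WT, 194 and 96 in KO). The mean rose from 29.7 ± 7.78 (SD, n = 4) to 133 ± 20.6 (SD, n = 2), or 4.47-fold. Its log2 fold change was 2.16 (SE 0.42, 95% interval 1.33 to 2.99, DESeq2 adjusted p = 1.84e-05), and 1.99 to 2.32 with any single library left out.

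Adamts5 (ENSMUSG00000022894.5, chromosome 16, 85856173 to 85901828, minus strand), the main aggrecanase of mouse cartilage and a versicanase in the vessel wall, had 2254, 2256, 2006 and 1896 normalised counts across WT-1 to WT-4. KO-1 had 4041 and KO-2 3084. The WT libraries were tightly grouped and both KO libraries were above them. The mean went from 2103 ± 181 (SD, n = 4) to 3562 ± 676 (SD, n = 2), which was 1.69-fold higher. Its log2 fold change was 0.76 (SE 0.18, 95% interval 0.40 to 1.12, DESeq2 adjusted p = 0.00107). Without a filter on low counts, edgeR gave an adjusted p of 0.0579.

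Adamts1 (ENSMUSG00000022893.14, chromosome 16, 85793827 to 85803113, minus strand), the neighbour of Adamts5 at 53059 bp and on the same strand, was the most abundant of the 4 member proteases. WT-1 to WT-4 had 5951, 5865, 7406 and 10470 normalised counts, KO-1 had 6736 and KO-2 had 3454. KO-1 lay within the WT range and KO-2 was the lowest of all libraries. The log2 fold change was -0.54 (SE 0.29, 95% interval -1.12 to 0.04, DESeq2 adjusted p = 0.265). Without KO-1 it was -1.10 (DESeq2 adjusted p = 0.00816), so the call rested on which KO library was kept. Of 13 immediate early genes 4 passed, all lower in KO (Fosb, Nr4a1, Atf3 and Ier3), where 10.4% of all genes tested passed. Their list summed to 24170 to 48830 normalised counts in WT, 15810 in KO-1 and 24630 in KO-2. Its order was not that of Adamts1, which was higher in KO-1 than in KO-2. Within WT, the list was highest in WT-1 and Adamts1 in WT-4. The part of this list in the Adamts1 values was not tested.

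Adamts9 (ENSMUSG00000030022.14, chromosome 6, 92772699 to 92943492, minus strand), which also cuts versican, was level across the libraries. WT-1 to WT-4 had 694, 745, 798 and 768 normalised counts, and KO-1 and KO-2 had 678 and 796. One KO library was the lowest of the 6 and the other was next to the highest. The log2 fold change was -0.03 (SE 0.18, DESeq2 adjusted p = 0.952), with a 95% interval of -0.39 to 0.33, and its sign turned in 4 of 13 alternative fits. Overlapping Adamts9 on the other strand are 3 genes (A730049H05Rik, Gm15737 and 9530026P05Rik), of which 9530026P05Rik had the most counts, 133 in WT and 138 in KO.

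**Figure D2:**
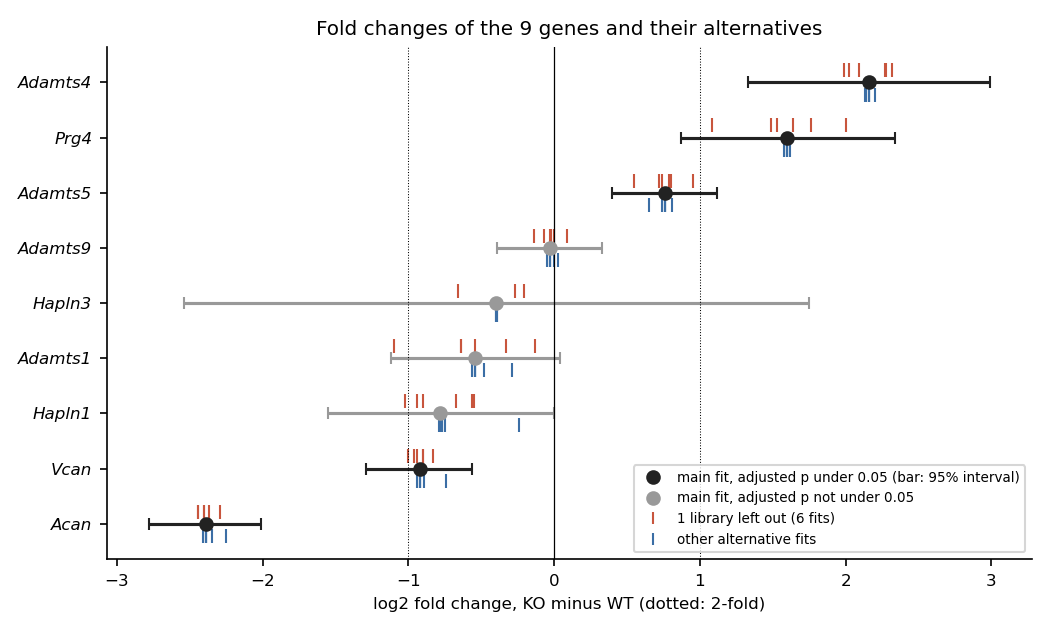
Log2 fold changes, KO minus WT (x axis), of the 9 genes from the DESeq2 fit over all genes, with 95% intervals as bars, black for an adjusted p under 0.05 and grey otherwise. Red ticks above each point are fits with 1 library left out and blue ticks below are the other alternative fits. The ticks of Acan stay between -2.44 and -2.25, those of Prg4 run from 1.08 to 2.00, and the intervals of Hapln1, Hapln3, Adamts1 and Adamts9 reach or cross 0.

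Prg4 (ENSMUSG00000006014.16, chromosome 1, 150449412 to 150466165, minus strand), the lubricin gene, had 68.1, 88.0, 61.9 and 106 normalised counts across WT-1 to WT-4. It had 170 in KO-1 and 324 in KO-2. KO-2 was well above KO-1, and both were above all WT libraries. The mean rose from 81.1 ± 20.2 (SD, n = 4) to 247 ± 109 (SD, n = 2), or 3.04-fold, with a log2 fold change of 1.60 (SE 0.37, 95% interval 0.87 to 2.34, DESeq2 adjusted p = 0.000574). Without KO-2 the log2 fold change was 1.08 and the adjusted p 0.146, and edgeR without a filter on low counts gave an adjusted p of 0.0502. Prg4 overlaps 524 bp of Tpr, a nuclear pore gene on the other strand, which had 3074 normalised counts in WT and 4471 in KO (log2 fold change 0.54, DESeq2 adjusted p = 0.0429).

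Most markers of lining cells were higher in KO, as Prg4 was. Of 12 synovial and mesothelial markers 8 passed, all higher, where 10.4% of all genes tested passed. The median log2 fold change of the list was 2.19. The list summed to 1386, 1193, 1531 and 1359 normalised counts in WT-1 to WT-4, 2535 in KO-1 and 4604 in KO-2. Prg4 had the same order between the KO libraries but not within WT. In WT-3 the list was highest and Prg4 lowest of the WT libraries. Msln (mesothelin) went from 74.8 to 282 mean normalised counts and Upk3b from 180 to 807. Wt1 had 0 counts in WT-2 and Krt8 had 0 counts in WT-1 and WT-2. The part of these cells in the Prg4 result was not tested.

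**Figure D3:**
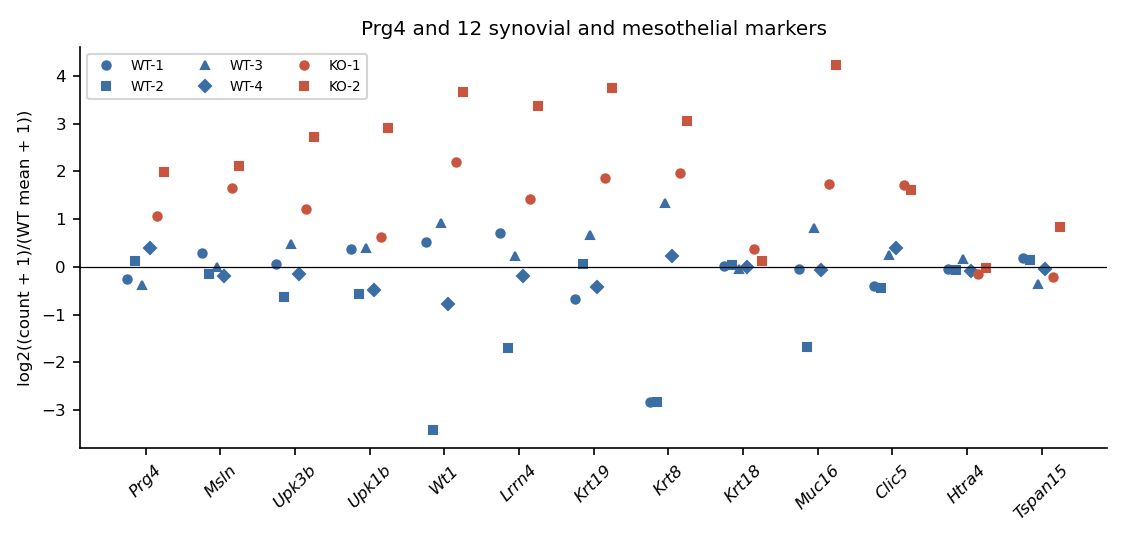
Prg4 and the 12 synovial and mesothelial markers (x axis) in each library, as log2 of the normalised count plus 1 over the WT mean plus 1 (y axis). Blue points are the 4 WT libraries and red points the KO libraries. KO-2 (red square) is above KO-1 (red circle) for Prg4, at 1.99 against 1.06, and for most of the markers.

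Some markers of other resident cells were higher in KO, as Adamts4 and Adamts5 were. Of all genes tested 10.4% passed. Of 9 fibroblast markers 2 passed, both higher (Lum, a small proteoglycan, with a log2 fold change of 1.0 and SE 0.19, and Cd34 with 0.63 and SE 0.18), and the list summed to 116500 to 128500 normalised counts in WT and 147400 and 170100 in KO. Of 8 endothelial markers 4 passed, all higher (sums of 13070 to 23550 in WT, 32490 and 31880 in KO), while Erg had 1462 to 1965 normalised counts in WT and 914 and 1310 in KO and did not pass (-0.57, SE 0.22, DESeq2 adjusted p = 0.0719). Of 9 macrophage markers 8 passed, all higher (10040 to 12120 in WT, 17130 and 19640 in KO). Adamts4, Adamts5 and the endothelial sum were higher in KO-1 than in KO-2, while the fibroblast and macrophage sums were lower. No marker of these 3 lists was at 0 in any library. The part of these cells in the protease results was not tested.

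The order of the 9 genes by level per kb of exon differed between the groups. In WT it was Adamts1 (1400 normalised counts per kb), Vcan (298), Acan (250), Adamts5 (195), Adamts9 (49.9), Hapln1 (28.1), Prg4 (19.0), Adamts4 (6.17) and Hapln3 (2.28). The ranges of neighbours in this order overlapped only for Vcan and Acan and for Hapln1 and Prg4. In KO, Adamts5 (330) stood before Vcan (157), and Acan (47.6) was sixth, after Prg4 (57.8) and Adamts9 (49.0). Acan overlapped Adamts9 in KO, Adamts9 overlapped Prg4, and the other neighbours in the KO order were apart. Adamts4 (27.6) stood before Hapln1 (16.5), the reverse of WT.

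The 4 member proteases were set against both core proteins as a ratio of summed levels per kb. This ratio was 2.76, 2.88, 2.67 and 3.69 for WT-1 to WT-4, 8.54 for KO-1 and 4.88 for KO-2. Both KO values were higher than the WT values, and KO-1 was the highest. On the log2 scale it went from 1.57 ± 0.21 (SD, n = 4) to 2.69 ± 0.57 (SD, n = 2), a difference of 1.12 (2.17-fold), and the exact two-sided permutation test gave p = 0.0667, the smallest this design allows. The difference was 0.62 with Acan left out of the core proteins and 2.1 with Adamts1 left out of the proteases. The 4 proteases alone summed to 1383, 1372, 1640 and 2210 per kb in WT-1 to WT-4, 1720 in KO-1 and 1015 in KO-2. Their sums overlapped between the groups and KO-2 was the lowest, while the core protein sums were lower in both KO libraries, without overlap.

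The make-up of the protease pool was compared as the share of each of the 7 hyalectanases in their summed level per kb. Adamts1 made up 61.4%, 62.4%, 68.6% and 76.5% of it across WT-1 to WT-4, 53.9% in KO-1 and 48.9% in KO-2. Adamts5 made up 6.80% to 11.8% in WT and 15.9% and 21.5% in KO, and Adamts4 0.214% to 0.421% in WT and 1.3% and 1.84% in KO. Adamts15 made up 5.24% to 8.7% in WT, 18.1% in KO-1 and 13% in KO-2. The shares of Adamts1, Adamts4, Adamts5 and Adamts15 did not overlap between the groups. The sum itself was 1829, 1774, 2035 and 2583 for WT-1 to WT-4, 2358 for KO-1 and 1331 for KO-2. KO-2 was the lowest library and KO-1 was exceeded by WT-4 alone.

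**Figure D4:**
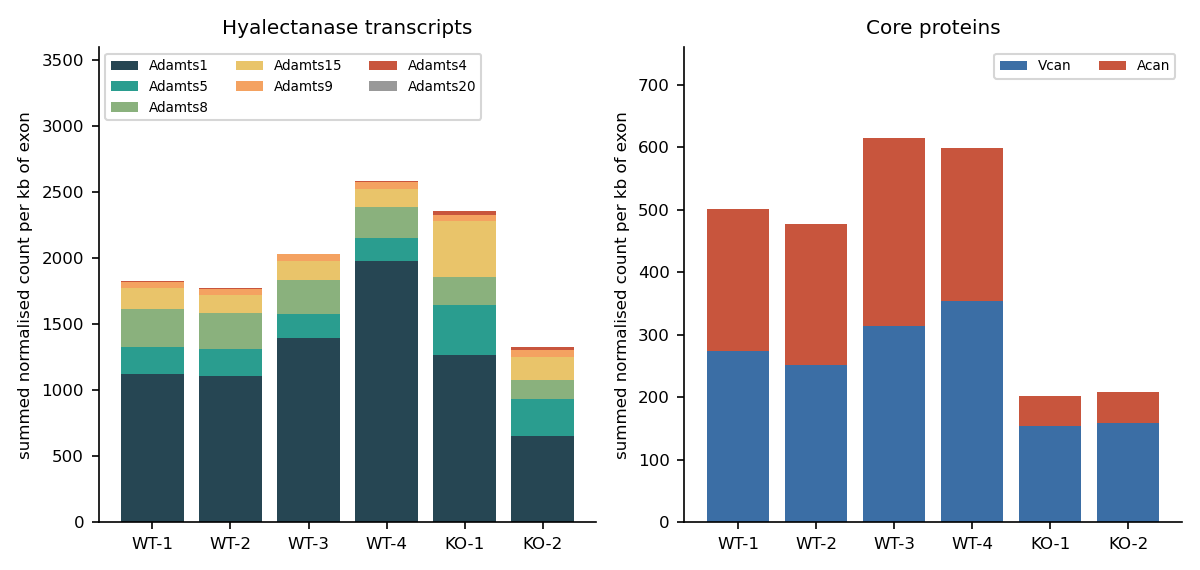
Stacked bars of summed normalised counts per kb of exon (y axes from 0) in each library, for the 7 hyalectanases on the left and Vcan and Acan on the right. The core protein bars are lower in KO (202 and 208) than in WT (477 to 615), while the protease bars of KO-1 and KO-2 differ from each other (2358 and 1331).

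Adamts15, a further versican-cutting protease, had 1649, 1354, 1467 and 1402 normalised counts across WT-1 to WT-4, 4418 in KO-1 and 1796 in KO-2. KO-2 was just above the WT range and KO-1 far above it. Its log2 fold change was 1.08 (SE 0.29, DESeq2 adjusted p = 0.00459). Adamts8 had 1095 to 1324 normalised counts in WT and 970 and 658 in KO, without overlap, and did not pass the test (log2 fold change -0.57, SE 0.21, DESeq2 adjusted p = 0.0628). Adamts20 had at most 11.4 normalised counts in any library.

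Around the members, 85 further genes in 8 lists of this pathway were read from the same fit. Of the 74 with an adjusted p-value, 17 passed (23%), 9 higher and 8 lower, against the 10.4% of all genes given above. Of 9 other ADAMTS proteases with an adjusted p-value 3 passed. The procollagen proteases Adamts2 (log2 fold change 0.52, SE 0.16) and Adamts14 (-1.39, SE 0.34) moved in opposite directions. Adamts10, which binds fibrillin, fell from 6875 ± 1114 (SD, n = 4) to 2901 ± 455 (SD, n = 2) normalised counts (-1.24, SE 0.20, DESeq2 adjusted p = 6.02e-08). Of 7 ADAMTS-like proteins, which lack a protease domain, 2 passed. Adamtsl2, which binds fibrillin and latent TGF-β binding protein, rose from 514 to 772 normalised counts in WT to 3805 and 2367 in KO (2.20, SE 0.24, DESeq2 adjusted p = 1.25e-16), and Adamtsl5 fell (-0.94, SE 0.18).

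Of 7 inhibitors, activators and clearance receptors of the ADAMTS proteases with an adjusted p-value 1 passed, Pcsk6 (0.90, SE 0.21), a proprotein convertase. Timp3, the main tissue inhibitor of Adamts4 and Adamts5, had 44710, 46040, 51800 and 53280 normalised counts across WT-1 to WT-4, 65560 in KO-1 and 58630 in KO-2. Both KO libraries were above the WT range, but the log2 fold change of 0.34 (SE 0.16, DESeq2 adjusted p = 0.167) did not pass. Lrp1, an endocytic receptor that clears Adamts4 and Adamts5, had a log2 fold change of -0.10 (SE 0.21, DESeq2 adjusted p = 0.85), with KO-1 (35010) above and KO-2 (21820) below all WT libraries (27910 to 32320). Furin, which removes the prodomain of ADAMTS proteases, had -0.14 (SE 0.15).

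Of 26 genes that build and sulphate chondroitin sulphate chains, 4 passed, all lower (15.4%, against 10.4% of all genes tested). The other 22 did not pass, and the median of the list was -0.09. Xylt2, which starts the chain on the core protein, had 814 to 1007 normalised counts in WT and 561 and 461 in KO (log2 fold change -0.83, SE 0.20, DESeq2 adjusted p = 0.000786). Xylt1 of the same list had 480 to 706 in WT and 623 and 687 in KO (0.18, SE 0.22, DESeq2 adjusted p = 0.701). The chain polymerising genes Chpf (-1.46, SE 0.27) and Chsy3 (-1.03, SE 0.28) and the sulphotransferase Chst3 (-0.96, SE 0.20) were lower too, without overlap of the groups. The more abundant polymerase Chsy1 had 2331 to 3103 normalised counts in WT and 2331 and 2445 in KO (-0.21, SE 0.18, DESeq2 adjusted p = 0.531).

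Hyaluronan genes were mostly not shown to differ, with 2 of 11 past the test, both higher. These were the receptors Lyve1, a marker of lymphatic endothelium and of some macrophages (1.15, SE 0.20), and Cd44 (0.56, SE 0.20, DESeq2 adjusted p = 0.0438). The hyaluronan synthase Has2 was near the limit of detection at 11.7 to 36.2 normalised counts in WT and 33.4 and 30.7 in KO (0.53, SE 0.66). Of 10 genes whose products bind versican or aggrecan 4 passed, 3 higher and 1 lower. Tnc (tenascin-C) fell from 4671 ± 296 (SD, n = 4) to 2027 ± 402 (SD, n = 2) normalised counts (-1.20, SE 0.18), while Fbln2 (fibulin-2) rose (0.91, SE 0.20), as did Egfr (0.65, SE 0.21).

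The genes beside the members on the chromosomes were looked up as well. Mfge8, which encodes a major protein of the aortic media and lies 2749 bp beyond Hapln3, fell from 18550 to 9764 mean normalised counts (log2 fold change -0.93, DESeq2 adjusted p = 3.36e-06). On the other side of Acan, at 133086 bp, Isg20 rose (1.49, DESeq2 adjusted p = 0.00189). Xrcc4, the neighbour of Vcan, had 0.32 (DESeq2 adjusted p = 0.453). Gm4117, an antisense gene that overlaps Vcan by 3050 bp, had 313 normalised counts in WT and 226 in KO (-0.47, DESeq2 adjusted p = 0.33). Next to Prg4, Hmcn1 (hemicentin) rose (2.46, DESeq2 adjusted p = 0.00108), and next to Adamts4, Fcer1g, an Fc receptor chain of myeloid cells, rose (1.0, DESeq2 adjusted p = 0.0135).

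The patterns of Vcan and of each called member over the 6 libraries were compared with 11438 genes of at least 100 mean normalised counts. The measure was Pearson's r of log2 values, as a description of libraries that share depth and group. Acan was most like Actn1, an actin crosslinker (r = 0.999), Lrig3 (r = 0.997) and Zfp970 (r = 0.996), of which Zfp970 had a mean of 213 normalised counts in WT and 0 counts in both KO libraries. Vcan was most like Mcm6, Pcdhac2 and Lonrf1 (r = 0.996 to 0.994). Adamts4 was most like Rassf3, C4b (a complement gene) and Gng7 (r = 0.998 to 0.995), and Prg4 was most like Ccdc58, Irak4 and Tcn2 (r = 0.993 to 0.991).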

How the data were processed

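The authors trimmed reads with Trim Galore, mapped them with HISAT2 to GRCm38 (mm10 in the labels) and quantified genes of GENCODE M15 with StringTie. The authors deposited estimated counts, 1 per gene and library, as whole numbers not scaled for depth. How coverage became counts, and whether strand was used, is not given in the sources used here. Columns carry codes that were matched to WT (4) and KO (2) by inference. The study counts the libraries as 4 WT and 2 KO mice.

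DESeq2 1.42.0 (R 4.3.3; Wald test, group as the term, default filtering) was fitted on all genes, with Benjamini-Hochberg adjustment over all genes tested. A gene was called at an adjusted p under 0.05 and a fold above 2, the thresholds of the study. Intervals are 1.96 standard errors. Levels per kb use merged exon length from GENCODE M21. Promoter windows came from RefSeq. Single ratios were compared with exact permutation tests. Alternatives used edgeR 4.0.16, other scaling and filters, a block and left-out libraries. The scripts were tested on simulated data. Members and gene lists were chosen with earlier results of these data known. Named were all members, list genes past the adjusted p (at most 6 a list), Tgfbr1, Tgfbr2, Timp3, Lrp1, Cd44, Has2 and Sox9. Also named were genes of like pattern (3 each for Vcan and the called members) and genomic neighbours. A few genes that these rules name are not reported here. Other genes were chosen after their values were seen.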

Additional observations from a re-analysis of the deposited data

Results flagged for a closer look

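Of 30 results checked for a WT library far from the other 3, 1 was found, where chance gives about 1 in 20 (1.5 of 30). The 9 smooth muscle markers summed to 1170000 normalised counts in WT-3, against 998400 to 1007000 in WT-1, WT-2 and WT-4, and the gap to the nearest of them was 0.95 of the range of the group. Acan was also highest in WT-3 of the 4 WT libraries, at 2254 normalised counts. Without WT-3 the same 5 members passed the adjusted p-value.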

How the results depend on the processing

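Acan, lower in KO, was past the adjusted p-value in all 13 alternative fits. Called genes over the whole table, 962 in the fit reported, were 633 by edgeR, 428 by edgeR without a filter, 114 against a 2-fold change, 561 in the fit that blocks on replicate number and 636 to 1284 with 1 library left out. By the adjusted p-value alone, the 1775 genes became 996, 526, 114, 628 and 1113 to 2439. Members past the adjusted p-value (5) were 3 by edgeR without a filter, 1 against a 2-fold change, 1 with the block and 4 to 6 with 1 library left out. Called members (3) were 1 against a 2-fold change, 1 with the block and 2 to 4 with 1 library left out. The 17 other pathway genes became 8 by edgeR without a filter, 1 against a 2-fold change, 9 with the block and 14 to 17 with 1 library left out. edgeR without a filter gave 1.60 (adjusted p = 0.0502) for Prg4 and 0.76 (adjusted p = 0.0579) for Adamts5. Against a 2-fold change, Vcan (-0.92), Prg4 (1.60) and Adamts5 (0.76) had an adjusted p of 1 and Adamts4 (2.16) of 0.587. Whether the numbers shared by WT and KO libraries pair them was not settled. The deviations of WT-1 and KO-1 from their group means correlated at -0.099 and those of WT-2 and KO-2 at 0.00924. With 2 KO libraries, the deviations of KO-1 and KO-2 mirror each other, so these correlations cannot decide the question. With the block, which spends libraries on the numbers, Vcan had -0.74 (adjusted p = 0.112), Prg4 1.60 (0.0982), Adamts4 2.13 (0.12) and Adamts5 0.65 (0.241). Without KO-2, Prg4 had 1.08 (adjusted p = 0.146), and without KO-1, Adamts1 had -1.10 (adjusted p = 0.00816; -1.10 to -0.13 over the libraries left out). The lone KO library was then assumed to vary like WT. Adamts9 (-0.03) turned to 0.00 with total counts as scaling, 0.00 without WT-3, 0.09 without KO-1 and 0.03 with the block (-0.14 to 0.09 over the libraries left out). The protease to core protein difference (1.12) was 0.62 without Acan, 2.1 without Adamts1 and 0.72 to 1.52 with 1 library left out. The cause of these shifts was not tested. With 2 KO libraries, differences in Hapln1 or Adamts1 of the size of their intervals could not be settled, and Hapln3 was too low for a value in 6 fits.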
